A study of Mus musculus with 5 samples.

Results

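The genes described here are 48 transcripts of adipose type that stood high in a single library of sorted hematopoietic stem cells (HSCs), the Syncrip knockout library KO 2. They were chosen from the normalized read counts themselves: a gene of the 24046 in the table was a member when its value in KO 2 was at least 100 and at least 5 times the highest value of the other 4 libraries after 5 had been added to that value. Of the 50 genes that met the rule, 2 were left out by name, and 48 members remained. Because the rule used KO 2 and all other libraries, the levels given below describe the members and were not tested.

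The study dealt with SYNCRIP, a protein that binds RNA, and with what its loss does to HSCs. All libraries came from donor marrow of genotype Syncrip flox/flox, either Mx1 Cre- (WT, 3 libraries: WT 1, WT 2 and WT 3) or carrying the Mx1 Cre transgene (KO, 2 libraries: KO 2 and KO 3). The marrow was transplanted into congenic CD45.1 mice, which were given pIpC, an interferon inducer that switches on the Mx1 promoter, in both groups. Donor HSCs were sorted 9 weeks after transplantation and 3 weeks after pIpC as CD45.2+, Lin-, Sca1+, cKit+, CD150+, CD48- cells. Mx1 Cre is not restricted to HSCs and acts in the donor cells that respond to interferon, and the floxed allele was brought by the donor marrow. The study's methods describe young adult donors of both sexes and young adult female recipients, and nothing in the labels says whether each library came from a separate mouse. The methods speak of biological replicates for all experiments in general, without tying these 5 libraries to mice.

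Brown adipocytes burn fatty acids to make heat: UCP1 lets protons leak across the inner mitochondrial membrane, and the cell is fuelled from many small lipid droplets. White adipocytes store triglyceride in a single large droplet and secrete adipokines such as adiponectin and leptin. Both kinds share a program of fatty acid uptake, triglyceride synthesis and lipid droplet coating that is driven by the nuclear receptor PPARγ, and Ucp1 with Cidea marks the brown and beige kinds. None of these genes defines the HSC gate, but enzymes of fatty acid synthesis and oxidation are present in most cells, HSCs included.

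Depth was 18308876 reads in KO 2, 12539599 in KO 3 and 21748781 to 22779536 in WT, and 14947 to 15740 genes had a read in a library. A single read was worth 0.833 to 0.868 normalized counts in WT libraries, 1.03 in KO 2 and 1.52 in KO 3, and a low gene was therefore hardest to detect in KO 3. The targeted gene Syncrip stood at 1440 to 1944 in WT, 294 in KO 2 and 343 in KO 3, which went with the labels of both KO libraries. The gate's own markers were present in KO 2, with Kit at 8007 against 8119 to 10741 in WT and 10259 in KO 3. Ptprc, which encodes CD45, ran from 3735 to 4635 in WT, with 2010 in KO 2 and 1271 in KO 3.

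The members together took 49234 reads of KO 2, which is 0.269% of that library (95% Clopper-Pearson interval 0.267% to 0.271%). They took 653 reads of WT 1, 844 of WT 2, 737 of WT 3 and 212 of KO 3, or 0.00298%, 0.00388%, 0.00324% and 0.00169% of the reads. KO 2 thus stood apart from both WT and the other KO library, and KO 3 was the lowest of all. The reads carry no molecular identifiers and may repeat a molecule, so the interval covers counting error only. Counted per transcript length, the members' share was 0.380% in KO 2 and between 0.00159% and 0.00538% elsewhere. In bulk RNA, fewer cells of a type and less RNA per cell cannot be told apart, and neither can their opposites. The reads were concentrated in few genes, since the 5 highest members held 54.0% of the members' reads in KO 2 and the 10 highest held 76.1%.

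**Figure D1:**
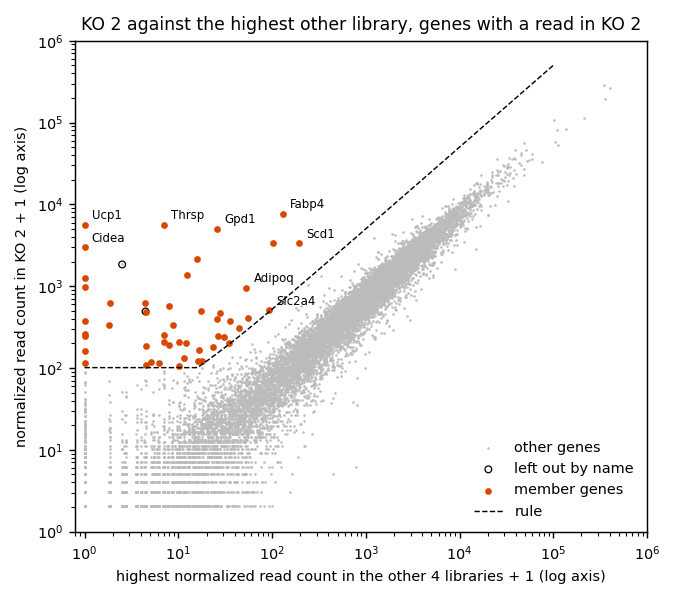
Each point is a gene with a read in KO 2, placed by its normalized read count in KO 2 (vertical) and by its highest value among the other 4 libraries (horizontal), both plus 1 on log axes; the dashed line is the rule. The 48 members (orange) lie above the line, with Ucp1 and Cidea at the left edge because no read was found elsewhere, and the open circles are the 2 genes left out by name.

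The label of adipose type names Ucp1, Cidea, Fabp4 and Plin1 as its markers. Ucp1, the uncoupling protein of brown fat, reached 5622 normalized reads in KO 2 and was at 0 in WT 1, WT 2, WT 3 and KO 3. Cidea, a lipid droplet protein of brown and beige adipocytes, stood at 3015 in KO 2 and at 0 in the other 4 libraries. These values rest on 5469 and 2933 reads in KO 2, and not a single read of either gene was found elsewhere. Against a floor of 3 reads per library, Ucp1 was at least 1234-fold higher and Cidea at least 662-fold higher in KO 2 than in any other library. Fabp4, the fatty acid-binding protein of adipocytes, reached 7687 in KO 2, the highest value of any member, against 23.3 in WT 1, 128 in WT 2, 17.1 in WT 3 and 1.52 in KO 3. Plin1, which coats the adipocyte's lipid droplet and guards it from lipases, was at 621 in KO 2, 0.833 in WT 1, 0 in WT 2, 0.857 in WT 3 and 0 in KO 3, at least 136-fold higher in KO 2. All 4 are members, so their order among the libraries was set by the rule and does not bear on the label, which rests on what these genes are known to mark. The values were not confined to KO 2 for every member: 9 members had no read in any other library, 11 had at most 3 reads in each, and the remaining 37 had more than 3 reads in at least 1 of them.

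These genes are scattered over the genome, with the 48 members on 18 chromosomes and at most 5 on any of them, and all 48 are protein coding in GENCODE M21. Ucp1 lies at chr8:83290352-83298452 on the plus strand of GRCm38, Fabp4 at chr3:10204088-10208576 on the minus strand and Plin1 at chr7:79720218-79732903 on the minus strand. Promoter sequence (250 bases before to 50 bases after a RefSeq start, GRCm38.p6) was at hand for 25 of the members, and 6 motifs were searched in it on both strands. The hexamer AGGTCA, the core read by nuclear receptors such as PPARγ, was found in 6 of the 25 (24%) and in 18.1% of all 27025 genes with a promoter. The pattern TTNNGNAAT, of the kind bound by C/EBP factors, was found in 3 (12%) against 13.1% of all. The 6 with the hexamer were Adig, Aqp7, Plin5, Pparg, Slc27a2 and Ucp1, and the 3 with the C/EBP pattern were Cidec, Col3a1 and Plin1. The direct repeat AGGTCANAGGTCA was found in none of the 25 and in 0.0481% of all. The boxes CCAAT and TATAAA were found in 44% and 20% of the 25 against 41.1% and 15.7% of all. The longer hexamer form AAGGTCA, which contains AGGTCA, was found in 8% against 5.38%. The matches describe letters in a short window and not bound sites. A stretch around a match is printed for the brown fat gene and for a pair of lipid droplet genes, 5′ to 3′ on the gene's strand with the motif in capitals (for the C/EBP pattern the capitals are its reverse complement).
Ucp1, chr8:83290324-83290347, plus strand: tagatctcccAGGTCAgggcgcag
Plin1, chr7:79732946-79732974, minus strand: ccacctctttATTGCCTAAacatccccca
Cidec, chr6:113434945-113434973, minus strand: ggagggctctATTGCTCAAgggcccatgg
The Ucp1 and Plin1 stretches lie upstream of the whole GENCODE gene. The Cidec stretch lies before a RefSeq start but inside the longer GENCODE gene span, chr6:113424634-113435760.

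Of the thermogenic genes, 9 of the 24 in the brown adipocyte list were members. Besides Ucp1 and Cidea these were Cpt1b, Plin5, Adrb3, Kcnk3, Fabp3, Otop1 and Elovl3. Adrb3, the β3-adrenergic receptor through which cold and noradrenaline act on fat, had 369 reads in KO 2 (value 379) and none elsewhere. Otop1, a proton channel gene, stood at 247 in KO 2 with no read elsewhere. Both were thus like Ucp1 in being undetected in the other 4 libraries. Cpt1b, the carnitine transferase that admits fatty acids to mitochondria in muscle and brown fat, was at 466 in KO 2 and at 19.98, 26.9, 5.14 and 3.04 in WT 1, WT 2, WT 3 and KO 3. Elovl3, an elongase of very long chain fatty acids, stood at 203 in KO 2, at 10.8, 7.81 and 11.1 in WT and at 0 in KO 3. Fabp3, the fatty acid-binding protein of heart and muscle, reached 335 in KO 2, with 7.81 the highest value elsewhere. Kcnk3, a potassium channel gene, differed from these genes in that KO 3 ranked next: it was at 376 in KO 2 and 34.9 in KO 3, against 9.99, 3.47 and 0.857 in WT. Of the 15 genes of the brown list that were no members, 6 were at their highest in KO 2, and these 15 took 0.0457% of its reads against 0.0296% to 0.0400% elsewhere. Most of that share was Slc29a1, well detected in every library, with 6675 of the 8366 reads in KO 2. Its value was 6862 in KO 2 and 4157 to 5918 elsewhere, so the share says little of brown fat genes. Over all genes with a read in KO 2, 18.3% were at their highest there. Not every brown fat gene was high: Dio2, the deiodinase that activates thyroid hormone, was at 181 in KO 2 against 131 to 223 in WT, and Ppargc1a, a coactivator of mitochondrial genes, was at 3.08 against 8.33 to 15.4. Zic1, Lhx8, Fgf21 and Esrrg were at 0 in KO 2 and in all other libraries. These 6 were picked after their values had been seen.

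**Figure D2:**
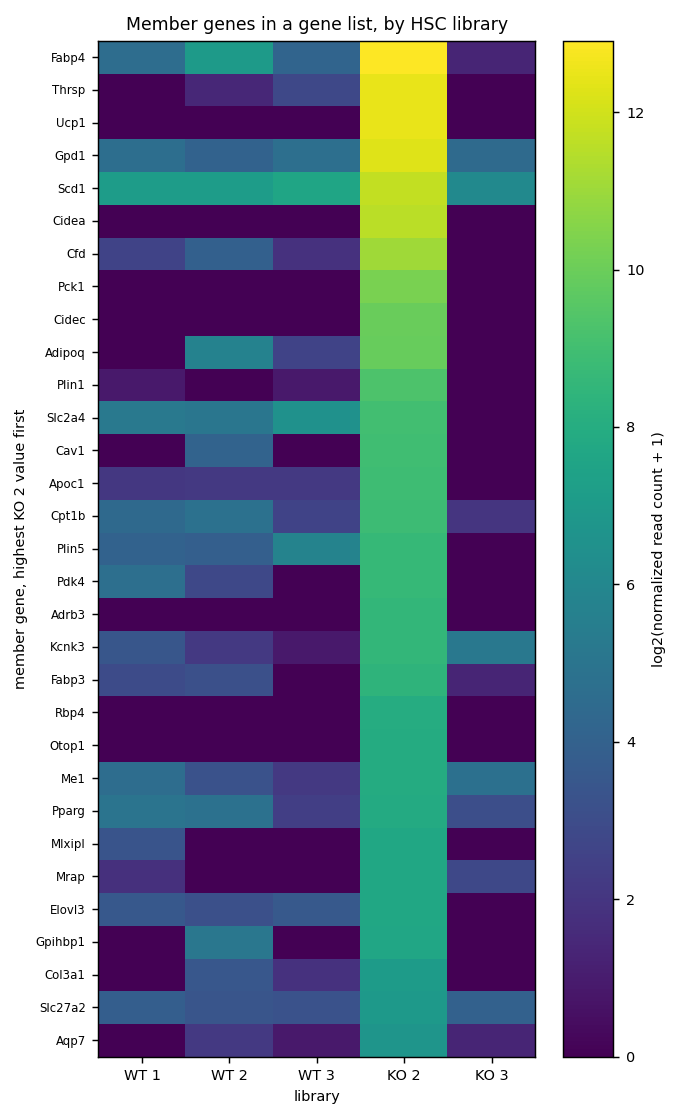
Heat map of log2(normalized read count + 1), given by the colour bar, with 1 row for each of the 31 members that stood in a gene list, in order of the KO 2 value, and 1 column for each library. The KO 2 column is the brightest in every row, from 7687 for Fabp4 at the top to 107 for Aqp7 at the bottom, while Ucp1, Cidea, Pck1, Cidec, Adrb3, Rbp4 and Otop1 are at 0 in the other 4 columns.

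Lipid droplet genes made the next group, with 5 of 18 as members. Cidec, which joins droplets into larger ones, stood at 979 in KO 2 and at 0 in all other libraries, at least 215-fold higher. Plin5, the perilipin of tissues that oxidize fat, was at 403 in KO 2 and at 15.8, 13.9, 54.0 and 0 in WT 1, WT 2, WT 3 and KO 3. Aqp7, the channel through which glycerol leaves the adipocyte, was near the rule's lower limit at 107 in KO 2, with 3.47 the highest value elsewhere. Plin1 and Cidea, given above, completed the group. Among the list's genes that were no members, the lipases of fat breakdown were also at their highest in KO 2. Pnpla2, the triglyceride lipase, was at 5487 in KO 2 and at most 3438 elsewhere, and Lipe, the hormone-sensitive lipase, was at 1872 against at most 833. G0s2, the inhibitor of that triglyceride lipase, was at 1608 against at most 922. Of the 13 genes that were no members, 9 were at their highest in KO 2, beside 18.3% of all genes with a read there. The 13 took 0.114% of the reads of KO 2 against 0.0661% to 0.0755% in the other libraries.

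Genes of fatty acid uptake and transport gave 6 members of 16. Cav1, the caveolin abundant in adipocytes and endothelium, stood at 498 in KO 2 and 16.5 in WT 2, with no read in WT 1, WT 3 and KO 3. Gpihbp1, which holds lipoprotein lipase on the capillary wall, was at 199 in KO 2 and 33.8 in WT 2, and was at 0 in the other 3. It is an endothelial gene rather than an adipocyte gene, and WT 2 was the next library for both. Apoc1, an apolipoprotein gene, reached 482 in KO 2 with at most 3.47 elsewhere. Slc27a2, a fatty acid transporter and acyl-CoA synthetase, was at 120 in KO 2, with 15.2 in KO 3 and 8.57 to 13.3 in WT. Lipoprotein lipase itself, Lpl, fell just outside the rule with 1344 in KO 2, 83.3, 333 and 259 in WT and 60.7 in KO 3. The scavenger receptor Cd36 was at 532 in KO 2, 136 to 180 in WT and 22.8 in KO 3. Of the 10 genes of this list that were no members, 4 were at their highest in KO 2. The 10 took 0.0764% of the reads of KO 2, within their 0.0549% to 0.0821% elsewhere.

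Synthesis of fatty acids and triglycerides gave 6 members of 26, among them the most abundant after Fabp4. Thrsp, a nuclear protein of lipogenic tissues, was at 5652 in KO 2, 0 in WT 1, 1.74 in WT 2, 6.00 in WT 3 and 0 in KO 3. Its KO 2 value was 942 times the highest other, the largest such fold among the 37 members with more than 3 reads elsewhere, whose median was 22.1. Gpd1, the cytosolic enzyme that makes glycerol 3-phosphate for triglycerides, was at 5012 in KO 2 and at 24.1, 15.6, 24.9 and 21.3 in WT 1, WT 2, WT 3 and KO 3, so that the other 4 libraries were alike. Pck1, which feeds the same glycerol backbone from pyruvate, was at 1263 in KO 2 with no read elsewhere, at least 277-fold higher. Scd1, the desaturase that makes oleate, was at 3348 in KO 2 and, unlike the genes above, was well detected in WT at 139, 138 and 191, with 69.9 in KO 3. Me1, a source of NADPH, was at 244 in KO 2, 25.8 in KO 3 and 3.43 to 23.3 in WT. Mlxipl, which encodes the carbohydrate-responsive factor ChREBP, was at 209 in KO 2, 9.16 in WT 1 and 0 in the other 3. Of the 20 genes of this list that were no members, 10 were at their highest in KO 2 (18.3% over all genes with a read there) and 10 were not. Among the former, Acaca was at 780 against at most 360, Acacb at 517 against at most 188, and Agpat2 at 7210 against at most 3989. Among the latter, the elongase Elovl5 was at 1887 in KO 2, below its 2432 to 2624 in WT, and Dgat1, which makes triglyceride, was at 3082, within its 2567 to 3314 in WT. Both were picked after their values had been seen. Fasn, fatty acid synthase, was higher in KO 2 and in KO 3 than in any WT library, at 9974 and 8247, and ran from 3438 to 4070 in WT.

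Secreted proteins gave 3 members of 14. Adipoq, which encodes adiponectin, stood at 959 in KO 2, 0 in WT 1, 52.1 in WT 2, 5.14 in WT 3 and 0 in KO 3. Cfd, the complement factor known as adipsin, was at 2164 in KO 2 and at 4.995, 14.8, 2.57 and 0 in WT 1, WT 2, WT 3 and KO 3. Rbp4, the retinol carrier, was at 258 in KO 2 with no read elsewhere. Of the 11 genes of this list that were no members, 3 were at their highest in KO 2. The 11 took 0.108% of the reads of KO 2, within their 0.0633% to 0.117% elsewhere. Lep, the gene of leptin, the main hormone of white fat, had no read in KO 2. In the white adipocyte list none of 12 genes was a member, and Lep, Hoxc8, Hoxc9, Hoxc10, Agt and Wt1 were at 0 in KO 2. At their highest in KO 2 were 4, beside 11.7% of all genes in the table: Npr3 at 25.7, Slc7a10 at 19.5, Sncg at 9.25 and Nnat at 2.06. Slc7a10 and Sncg had no read elsewhere, Npr3 was at most 4.34 and Nnat at most 0.857. The list took 0.0149% of the reads of KO 2 and 0.00622% to 0.0229% elsewhere, a range that holds the KO 2 value, and nearly all of it was Wfdc21, at 2692 in KO 2 and 2503 to 4280 in WT. None of 6 beige adipocyte genes was a member either. Cited1, at 14.4 against at most 3.43, and Klhl13, at 10.3 against at most 7.59, were the only beige genes at their highest in KO 2. The single genes and absences of the white and beige lists were noted after the values had been seen.

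Regulators and receptors gave 4 members of 21. Pparg, the gene of the adipocyte's master regulator, was at 240 in KO 2, 30.0, 26.9 and 4.28 in WT and 7.59 in KO 3. Slc2a4, the insulin-responsive glucose transporter GLUT4, was at 505 in KO 2, 35.8, 32.1 and 92.6 in WT and 0 in KO 3, which left it just inside the rule. Mrap, an accessory protein of the corticotropin receptor, was at 207 in KO 2, 6.07 in KO 3 and 2.50 in WT 1, with no read in WT 2 and WT 3. Nr1h3, the liver X receptor gene, was no member at 194 in KO 2 but lay above its 27.3 to 60.8 elsewhere. Cebpa, a partner of PPARγ that myeloid progenitors also use, was at 1024 in KO 2 against 445 to 788, so its groups were far closer. Of the 17 genes of this list that were no members, 14 were at their highest in KO 2, beside 18.3% of all genes with a read there.

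Of the 48 members, 31 stood in at least 1 of the 23 lists and 29 of these in an adipocyte list. The other 17 were in no list. The highest of them was Car3, a carbonic anhydrase abundant in fat and muscle, at 3361 in KO 2 and at 98.2, 71.2, 102 and 86.6 in WT 1, WT 2, WT 3 and KO 3. Cdo1, a cysteine dioxygenase of liver and fat, was at 1374 in KO 2 and between 3.04 and 11.3 elsewhere. Pnpla3, a lipase-like protein of liver and fat, was at 566 and Adig, the gene of adipogenin, at 338, against at most 6.94 and 0.833 elsewhere. Slc36a2, an amino acid transporter gene, was at 305 in KO 2 and 43.7 in WT 3. Sod3, the extracellular superoxide dismutase, stood at 255, Fxyd1, the gene of phospholemman, at 189, Fmo1, a monooxygenase, at 186 and Rasd1, a Ras-like protein induced by glucocorticoid, at 181. Their highest values elsewhere were 6.00, 6.94, 3.47 and 22.3. At the lower end, Gas1 was at 106, Klhdc7a at 113, Lims2 at 115 and Ppp1r1a at 116. Pdk4, the kinase that shuts pyruvate dehydrogenase when fat is burned, is a member of the fatty acid oxidation list and stood at 400 in KO 2, with 25.0, 6.08 and 0 in WT and 0 in KO 3.

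At the edge of the rule, the ratio of KO 2 to the highest other value plus 5 was 5.13 for Gpihbp1, 5.17 for Slc2a4, 5.64 for Pmepa1, 5.96 for Slc27a2 and 6.27 for Slc36a2. Just outside it were Ces1d, a carboxylesterase, at 4.22, then Lpl at 3.97, Plekhh3 at 3.92, Gm6484 at 3.65 and Dmpk at 3.29. By level, Gas1 at 106 was the lowest member, and Tmem45b at 88.4 and Slc4a4 at 86.3, picked after their values had been seen, were left out although neither had a read in any other library.

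Levels can be compared between genes only per transcript length. On that scale (TPM, computed from the recovered reads and the length of each principal transcript) Fabp4 was at 940 in KO 2 and ranked 112 among the genes of that library. Thrsp followed at 485 and Ucp1 at 377, then Cidea at 296, Cfd at 257, Car3 at 219 and Gpd1 at 192. Of the members, 3 were among the 500 most abundant genes of KO 2 and 6 among the 1000 most abundant, so the set held some of its well expressed genes along with many low ones. Apoc1 and Cdo1 were at 99.3 and 94.5, and Adipoq at 81.4. Plin1, the member of the 4 markers with the lowest level, was at 24.2.

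Close relatives of the members were read beside them, some well expressed in the HSC libraries and some, such as Ucp3 and Plin4, low in WT. Ucp2, the uncoupling protein of blood cells, was at 552 TPM in KO 2, within its 442 to 625 in the other libraries, whereas Ucp1 went from 0 to 377. In KO 2 Ucp1 was thus below Ucp2 but of the same order. Ucp3, the form of muscle and brown fat, was at 3.22 in KO 2 and 0.576 in KO 3, with at most 0.0386 in WT. Among perilipins, Plin2 and Plin3, which coat droplets in most cells, were at 156 and 112 in KO 2 against 73.2 to 138 and 74.5 to 101 elsewhere, while Plin4 was at 0.998 against at most 0.232. Fabp5, the form of skin and macrophages, was at 67.8 in KO 2, with 65.9 in KO 3 and 32.1 to 52.5 in WT. Cideb, the liver form, was at 3.16 in KO 2, within its 2.82 to 4.65 elsewhere, and Scd2 at 96.4 lay within its 83.3 to 114. Ucp2, Cideb and Scd2 in KO 2 thus lay inside the range of the other 4 libraries, and Ucp3, Plin2, Plin3, Plin4 and Fabp5 lay above it. No stretch of 50 bases was shared between the transcripts of any pair within these families, except 145 such windows shared by Scd1 and Scd2, which could carry reads of either.

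**Figure D3:**
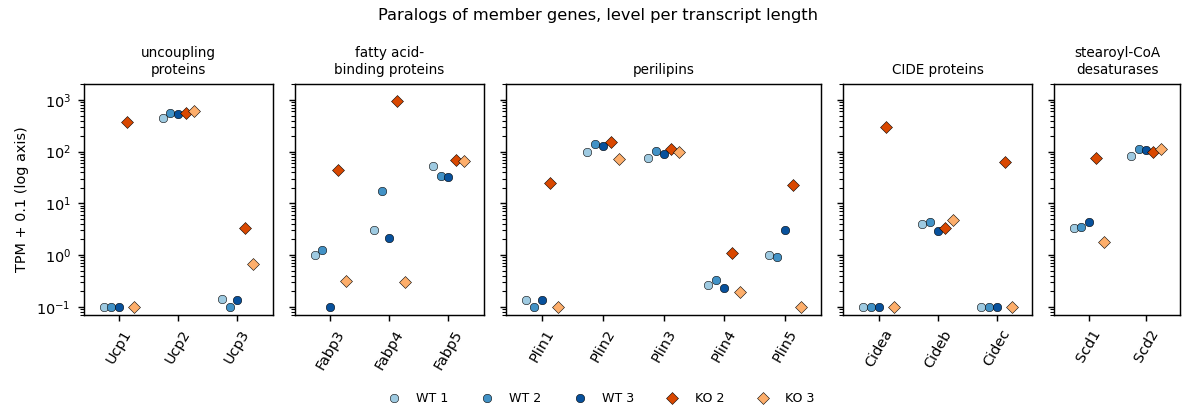
Level per transcript length (TPM plus 0.1, log axis) of members and their relatives in 5 gene families, by library. Ucp1, Fabp4, Plin1, Cidea, Cidec and Scd1 are far higher in KO 2 (dark orange) than elsewhere, while Ucp2, Cideb and Scd2 in KO 2 lie among the other libraries.

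Fatty acid oxidation was examined as the pathway that brown fat runs at a high rate, through 24 genes of which Cpt1b and Pdk4 were members. Of the 22 others, 19 were at their highest in KO 2, against 13.9% of all 13661 genes past the filter on low values. The steps were small beside those of the members: the KO 2 value was 0.715 to 5.92 times the highest other value, with a median of 1.31, and in 6 genes it was at least 1.5 times that value. Acaa2, the last thiolase of the mitochondrial spiral, was at 6639 in KO 2 and 2451 to 3128 elsewhere. Acadvl, the very long chain dehydrogenase, was at 4618 in KO 2 and 2275 to 2464 elsewhere. Ucp3 had the highest fold, at 72.0 in KO 2 and 12.1 in KO 3. The median log2 difference from the WT mean was 0.77 in KO 2 and -0.01 in KO 3, while WT libraries lay between -0.06 and 0.04. In the citric acid cycle list 10 of 16 genes were at their highest in KO 2, and none was a member. In the test of KO against WT, limma called none of the 24 oxidation genes in either direction, and 6 had an unadjusted p under 0.05, where 27.8% of all 13661 genes did. DESeq2 called 1 of 23, Eci1, an enoyl-CoA isomerase, higher in KO, where 4.03% of 12401 genes were called higher, so neither count stood out from the share over all genes. Eci1 ran from 1022 to 1075 in WT and stood at 2237 in KO 2 and 1986 in KO 3, so the groups did not overlap.

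**Figure D4:**
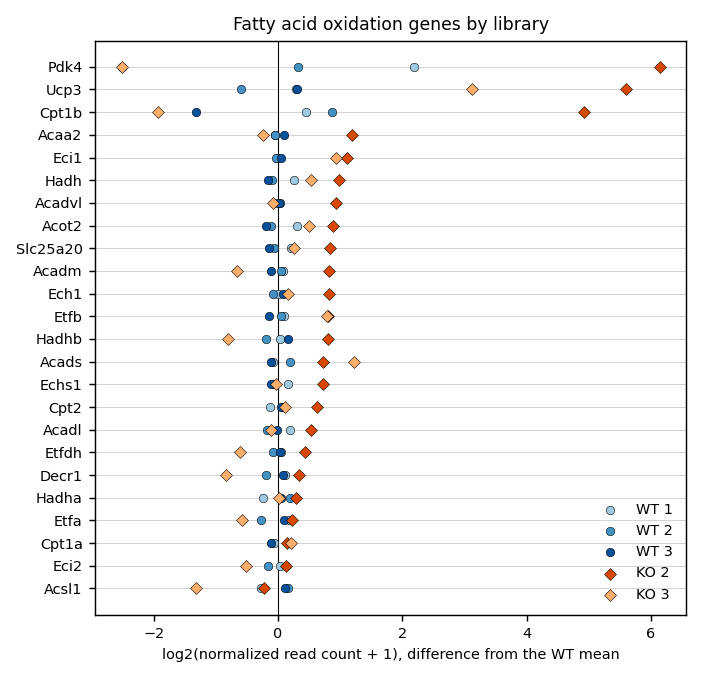
Difference from the WT mean on the scale of log2(normalized read count + 1), for each of the 24 fatty acid oxidation genes (rows), with 1 point per library. The members Pdk4 and Cpt1b and the gene Ucp3 lie farthest to the right in KO 2, most other KO 2 points lie above 0, and those of KO 3 lie on both sides of it.

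Over all adipocyte lists, 127 genes were in the table. Of the 98 that were no members, 49 were at their highest in KO 2, beside 11.7% of all genes in the table. The adipocyte genes took 0.947% of the reads of KO 2, 0.548% of KO 3, and 0.536%, 0.601% and 0.592% of WT 1, WT 2 and WT 3. Most of that sum came from genes that were no members, and without the members the shares were 0.725% in KO 2 and 0.534% to 0.598% elsewhere. In the comparison of KO with WT, limma called none of the 69 tested non-members in either direction (24 at an unadjusted p under 0.05, which 27.8% of all genes reached), and their median log2 fold change was 0.27 against 0.02 over all genes tested. edgeR called none of them either. DESeq2 called 4 of 64 higher, namely Fasn, Acacb, Ppara and Slc27a1, and 1 lower, Vldlr, a receptor for lipoprotein remnants, where 4.03% of all genes were called higher and 4.52% lower. Slc27a1, a fatty acid transporter gene, was led by KO 3 at 1668, with 578 in KO 2 and 312 to 460 in WT, an order unlike that of the members. These called genes were named after their values had been seen where they fell outside the naming rule.

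Markers of other cell types were summed for the same libraries. Of all genes in the table, 11.7% were at their highest in KO 2, a share to set beside the counts below. The skeletal muscle list took 0.00197% of the reads of KO 2, within its 0.00158% to 0.00308% elsewhere, and 2 of its 17 genes were highest in KO 2. Of its myosin heavy chain genes, Myh1, Myh2 and Myh7 were at 0 in KO 2, with Myh2 at 11.7 in WT 1, and Myh4 was at 6.17 in KO 2 and 30.4 in KO 3, while Myl1, a myosin light chain gene, was at 41.1 in KO 2 and at 0 in the other 4 libraries. The liver list took at most 0.000223% in any library, and Alb and Ttr were at 0 in all 5. Stromal genes took 0.00975% in KO 2, against 0.0196% in WT 2 and 0.00549% to 0.0103% in the remaining libraries, although Col3a1, a fibrillar collagen, was a member at 133 in KO 2 and 10.4 in WT 2. Pi16, at 1308 in KO 2 and 1241 to 1651 in WT, held 1272 of the 1785 stromal reads in KO 2. The list ran both ways: Pdgfra, Dlk1 and Lepr were at 0 in KO 2, whereas Dcn, the gene of the matrix protein decorin, was at 68.9 there, 3.47 in WT 2 and 0 in the other 3. Endothelial genes took 0.0620% in KO 2, 0.0753% in KO 3 and 0.0338% to 0.0465% in WT, and 5 of the 13 that were no members were highest in KO 2. Most of that sum was from genes well detected in every library, with Rgcc at 5680 and Vwf at 3035 of the 11347 reads in KO 2. Cdh5 was at 54.5 in KO 2 and 32.1 in WT 2, Cldn5 at 67.8 and 63.4, and Kdr at 85.3 and 109. Erythroid genes took 0.0904% in KO 2 and 0.0504% to 0.0715% elsewhere, with 5 of 8 highest in KO 2. Hba-a1 and Hba-a2 had identical reads in every library, 2110 in KO 2, and these entered the share and the count for both genes. Macrophage genes took 0.324% in KO 2, against 0.396% to 0.552% in WT, and least in KO 3, but nearly all of that sum was Lyz2. Without Lyz2 the other 9 took 0.0130% in KO 2, 0.0107% to 0.0145% in WT and 0.00673% in KO 3. Of the 10 macrophage genes 6 were highest in KO 2, among them the complement genes C1qb, at 501 against at most 414, and C1qc, at 513 against at most 356. The part of the erythroid, endothelial and macrophage genes in the members' pattern was not tested. Single genes of these lists were picked after their values had been seen.

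**Figure D5:**
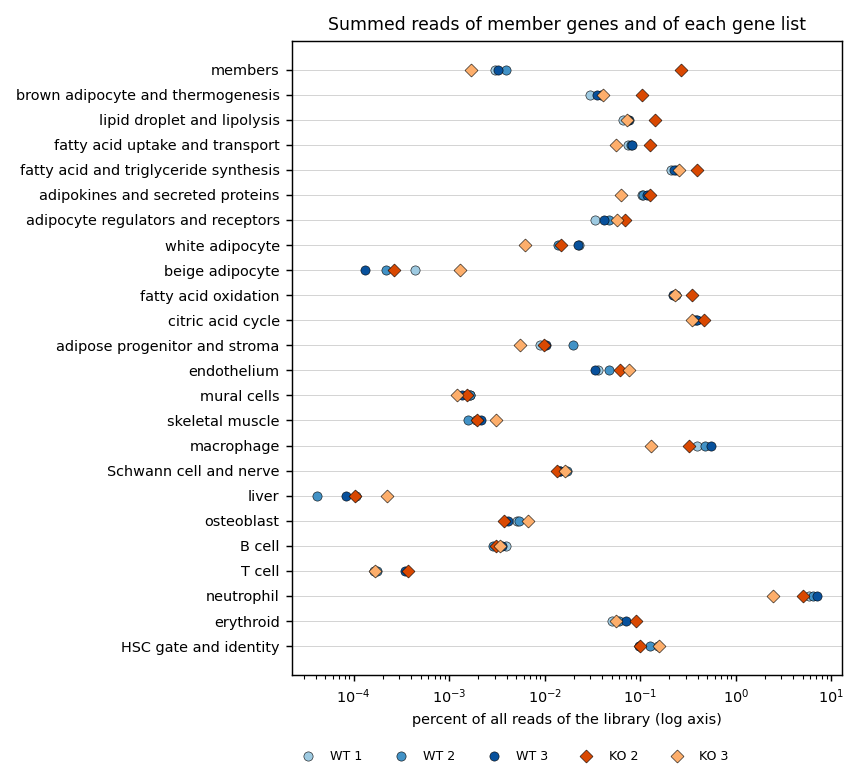
Share of each library's reads (percent, log axis) taken by the members and by each gene list, with 1 point per library. The members' distance between KO 2 (0.269%) and the other libraries (at most 0.00388%) was set by the rule, and the adipocyte lists include members. The skeletal muscle and liver points of KO 2 lie among the others.

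The same rule was turned on each of the other libraries in place of KO 2. It found no gene in WT 1, 1 in WT 3, 4 in WT 2 and 16 in KO 3, and none of these was in an adipocyte list. The 4 of WT 2 were Cxcl12, Col1a1, Ibsp and Tnc, genes of marrow stroma and bone. Those of KO 3 included the cytotoxic lymphocyte genes Gzmb, Gzma, Prf1 and Ifng, took 0.197% of its reads and were led by Sox4. Genes named here for the other libraries were picked after their values had been seen.

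Beyond KO 2, traces of the members were uneven. WT 2 was the next highest library for 16 members, WT 3 for 12, KO 3 for 6 and WT 1 for 5, and 9 had no read outside KO 2. In WT 2, Adipoq had 40.5 reads per 100 reads of Fabp4 (60 against 148), whereas KO 2 had 12.5. Gpihbp1 likewise had 26.4 per 100 in WT 2 and 2.59 in KO 2. Ucp1 had 73.1 per 100 in KO 2 and no read in WT 2. Adipoq, Gpihbp1 and Ucp1 were picked here after their values had been seen. The rule chose all members for low values in WT 2 beside KO 2, so these proportions are a description and were not tested. KO 3 had no read of 30 members and at most 3 reads of 36. It lay above all WT libraries for 6 members (Kcnk3, Me1, Mrap, Pmepa1, Slc27a2 and Gas1) and below all for 10, where 26.4% and 23.1% of all genes in the table did so.

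How the members entered the comparison of KO with WT was then read from fits over all genes. Only 23 of the 48 passed limma's filter, which asked for 2 libraries at 10 or more, and the 25 others reached 10 in KO 2 alone. limma called none of the 23 higher at an adjusted p under 0.05 and at least 2-fold, where 0% of all 13661 genes were called higher and 0.00732% lower. At an unadjusted p under 0.05, 3 of the 23 passed, where 27.8% of all genes did. edgeR on the recovered reads called none of the 23 (16 at an unadjusted p under 0.05, which 27.2% of all genes reached), where 0.00732% of all genes were called higher and 0.00732% lower. DESeq2, the tool the study used, called 15 of the 46 members that received an adjusted p, where 4.03% of 12401 genes were called higher and 4.52% lower. Since the rule used these libraries, nothing about the members is read from these counts. Of the 15, Ucp1, Cidea, Pck1, Cidec, Plin1 and Adrb3 had no read in KO 3, so KO 2 alone carried them, and the fitted log2 fold change of 5 exceeded 20. Gpd1, Car3 and Cdo1 lay between or below the WT values in KO 3. The other 6 were those in which KO 3 exceeded all WT libraries.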

How the data were processed

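Bulk RNA-seq of 5 libraries (SMART-Seq v4, RNA from sorted HSCs in TRIzol) was re-analysed. The submitters' processing notes name mm10, STAR, featureCounts and DESeq2. Versions, annotation and use of strand are not given in the sources used here. The authors deposited normalized signal, a gene's read count divided by its library's size factor. The authors' own comparison table holds fold changes and p-values and was not used. Whole reads were recovered for 100% of values within 0.01 read, giving 12539599 to 22779536 reads per library. Intervals and the 3-read floor cover counting error only.

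KO was compared with WT by limma 3.58.1 (trend) on log2(value + 1), for genes of at least 10 in at least 2 libraries, with Benjamini-Hochberg adjustment over all 13661. edgeR 4.0.16 and DESeq2 1.42.0 on recovered reads (R 4.3.3) were alternatives. Scripts were tested on simulated data. Samples were grouped by their labelled genotype. The methods state biological replicates in general, but no source ties these libraries to separate animals, so p-values measure only the spread between these samples. Lengths came from the GENCODE M21 principal transcript and promoters from RefSeq. Fold changes on the log2(value + 1) scale understate changes of low genes.

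The members, the gene lists and the rule for named genes were chosen with earlier results of these data known. The rule named the 4 markers, the 15 highest members by value and 10 by level per length, members in a list, members in no list by their 10 highest values, the 5 lowest, the 5 on each side of the ratio limit, the gene families, and list genes that were highest in KO 2 at 100 or more. Genes outside it are said to be so. The values of 1 gene that the rule named are not reported here.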

Additional observations from a re-analysis of the deposited data

How the results depend on the processing

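Of the results above, the number of members stayed within 1.5 times of 48 under every alternative run: it was 72 at a KO 2 value of at least 50, 34 at 200, 54 at a ratio of 3, 35 at a ratio of 10, 48 and 35 with 1 or 20 added, 50 on CPM, and 48 to 56 with a WT library or KO 3 left out (56 without WT 2), where all 48 were kept. It could not be recomputed without KO 2, which the rule needs. The members' share of KO 2 reads was 0.304% with members by a ratio of 3, 0.252% by a ratio of 10, 0.239% without Ucp1 and 0.380% per kilobase. The adipocyte lists' share in KO 2 was 1.58 times the highest other library. The ratio was 1.21 without the members, 24.9 without genes at 100 or more in every WT library, and 1.58 to 1.60 with a library left out, and the median log2 ratio over single genes was 0.27. The filter behind 24.9 drops genes for being high in WT and keeps most members. It therefore raises the ratio by construction, and nothing is read from that value. The count of members called higher moved from 0 with limma to 15 with DESeq2, and ranged from 0 to 6 with a library left out. It was 6 without KO 3 (Fabp4, Gpd1, Car3, Scd1, Cfd and Cdo1), where KO 2 was a lone library assumed to vary like WT and 10 of all 13418 genes were called higher and 1 lower. Without KO 2 the KO group was KO 3 alone, and the median log2 fold change was -1.13 over the 13 members tested and 0.02 over all genes tested. Other pseudocounts, no filter and TMM factors left the count of members called higher at 0. WT 2 with KO 2 and WT 3 with KO 3 share a replicate number, but the labels do not tie these to a mouse or day. Deviations from the group means correlated at -0.06 and -0.18 for same-numbered libraries. KO 2 and KO 3 deviate from their mean as mirror images, so these values cannot decide whether libraries of the same number were paired. With the number as a replicate block, 0 of 23 members were called, where 2 of all 13661 genes were called higher and 4 lower, and 4 members had an unadjusted p under 0.05, where 2122 of all genes did. The shallower KO 3 limits what could be seen of low members, since 3 reads there are worth 4.56.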

Other observations

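Further adipocyte genes lay under the level of 100 that the rule asked for. They were picked after their values had been seen and are given as values. Ppara, a nuclear receptor of fat-burning tissues, was at 99.7 in KO 2 and 16.7 in KO 3, with no read in WT. Lgals12, a lectin of adipocyte lipid droplets, was at 49.3 in KO 2, Rxrg at 41.1, Adrb1, the β1-adrenergic receptor, at 38.0 and Acvr1c, a receptor of the TGF-β family, at 35.0, and none of these had a read in the other 4 libraries. S100b was at 59.6 in KO 2 and 6.08 in WT 2, and Klf15 at 91.5 in KO 2 against 24.9 or less elsewhere.

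Some genes of marrow stroma were at their highest in WT 2. Cxcl12, the chemokine of niche cells, was at 798 in WT 2 and 33.9 in KO 2, with 6.66 to 66.0 in the remaining libraries. Lepr, which marks marrow stromal cells, was at 29.5 in WT 2, 0.857 in WT 3 and 0 in KO 2, WT 1 and KO 3. Col1a2 was at 442 in WT 2 and 4.11 in KO 2. Other genes of the same list ran the opposite way, with Dcn at 68.9 in KO 2 and 3.47 in WT 2 and Col3a1 at 133 and 10.4, so the order of KO 2 and WT 2 was not the same across stromal genes. All were picked after their values had been seen.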
